A study of Mus musculus with 3 samples.

Results

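The interferon-stimulated antiviral genes are host genes switched on by interferon signalling, and 43 of them were followed here in primary mouse embryonic fibroblasts. Members were found as the array probes whose transcript identifier belongs in RefSeq to a listed gene. 38 of the 43 had such a probe, on 54 probes in all, and 31 of these were tested because a probe was well above background, by the flag of the scanner software, on all 3 arrays in at least 1 channel. They stood among 18488 genes or transcripts tested in that way. The list held 38 type I antiviral genes, of which 27 were tested, and 5 GTPases of the GBP and IRG families (Gbp2, Gbp3, Igtp, Irgm1 and Iigp1), of which 4 were tested. Mx1, Mx2, Herc6, Dtx3l and Xaf1 had no probe by this rule and were not analysed here.

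The study compared fibroblasts labelled SA1-null with fibroblasts labelled wild type (WT). SA1 is the product of Stag1, a subunit of the cohesin ring that holds sister chromatids and chromatin loops. Both sets of cells came from E12.5 embryos, were cultured in DMEM with 10% FBS and received no treatment, so no interferon or virus was added. RNA of each SA1-null sample, labelled with Cy3, was hybridised together with RNA of a wild type sample, labelled with Cy5, on 1 of 3 two-colour arrays, described as 3 biological replicates. The labels do not name the Stag1 allele, the strain, the embryos or the litter, and nothing in them says whether a number stands for a separate embryo. No array had the dyes exchanged, and genotype and dye therefore cannot be told apart.

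Type I interferons are secreted proteins that bind the receptor made of Ifnar1 and Ifnar2. The kinases Jak1 and Tyk2 then activate the ISGF3 complex, which includes Stat2 and Irf9, and ISGF3 binds the interferon-stimulated response element (ISRE) in the promoters of antiviral genes. Interferon gamma acts through a different element, the gamma-activated site (GAS), and is a main inducer of the GBP and IRG GTPases. In fibroblasts a low constitutive interferon signal is known to keep many of these genes at a basal level.

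The promoters of 6 members are shown because they carry the element through which ISGF3 acts and because the values of these genes are given below. Each is the stretch of 250 bases before the transcription start in RefSeq (GRCm38.p6), written 5′ to 3′ on the strand of the gene, with every match to the ISRE letters (GAAA, any 2 bases and GAAA again, searched on both strands) in capitals. They lie at chr4:156200819-156201068 on the minus strand for Isg15, chr19:34583279-34583528 on the plus strand for Ifit3, chr5:120907526-120907775 on the minus strand for Oas1a, chr8:71537473-71537722 on the minus strand for Bst2, chr11:58199306-58199555 on the plus strand for Igtp and chr3:142559794-142560043 on the plus strand for Gbp3.
Isg15: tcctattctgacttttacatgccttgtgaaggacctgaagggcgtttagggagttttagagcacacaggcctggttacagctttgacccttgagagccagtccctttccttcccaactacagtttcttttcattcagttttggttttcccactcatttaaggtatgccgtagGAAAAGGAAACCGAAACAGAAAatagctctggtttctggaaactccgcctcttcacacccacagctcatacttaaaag
Ifit3: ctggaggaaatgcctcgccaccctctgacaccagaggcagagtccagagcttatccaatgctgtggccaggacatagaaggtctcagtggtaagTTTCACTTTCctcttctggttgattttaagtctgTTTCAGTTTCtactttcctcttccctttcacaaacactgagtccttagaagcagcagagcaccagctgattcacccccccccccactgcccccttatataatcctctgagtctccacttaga
Oas1a: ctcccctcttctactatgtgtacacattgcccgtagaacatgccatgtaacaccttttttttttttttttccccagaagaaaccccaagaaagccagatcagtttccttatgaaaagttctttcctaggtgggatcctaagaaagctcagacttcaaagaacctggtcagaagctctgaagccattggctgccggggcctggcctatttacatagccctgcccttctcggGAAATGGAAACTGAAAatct
Bst2: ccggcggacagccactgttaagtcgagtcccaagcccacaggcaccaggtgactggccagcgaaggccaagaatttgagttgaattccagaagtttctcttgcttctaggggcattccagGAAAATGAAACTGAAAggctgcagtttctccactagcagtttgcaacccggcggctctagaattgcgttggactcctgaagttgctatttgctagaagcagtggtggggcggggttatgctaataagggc
Igtp: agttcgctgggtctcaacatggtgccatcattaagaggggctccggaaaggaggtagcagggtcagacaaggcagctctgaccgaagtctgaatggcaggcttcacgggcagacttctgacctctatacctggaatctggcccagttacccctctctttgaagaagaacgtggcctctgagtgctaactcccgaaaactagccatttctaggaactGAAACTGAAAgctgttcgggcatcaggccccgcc
Gbp3: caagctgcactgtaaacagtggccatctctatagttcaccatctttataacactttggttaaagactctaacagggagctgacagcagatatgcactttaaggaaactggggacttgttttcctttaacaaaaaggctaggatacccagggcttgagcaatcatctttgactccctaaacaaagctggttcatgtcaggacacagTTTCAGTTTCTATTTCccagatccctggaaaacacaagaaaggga
Isg15 held 3 overlapping matches, which began between 78 and 66 bases before its start, and the matches of Ifit3 began 156 and 122 bases before it. Those of Oas1a and Igtp lay close to the start, at 20 and 14 bases for Oas1a and at 34 bases for Igtp. RefSeq windows of 300 bases, which add the 50 bases after the start, were at hand for 32 of the 43 members. The ISRE letters were found in 17 of these 32 members (53.1%), against 1079 of 27025 genes (3.99%). They were present in 13 of 28 type I members (46.4%) and in 4 of 4 GTPases. The GAS letters TTCNNNGAA, which read the same on both strands, were found in 10 of 32 members (31.2%) against 9.55% of all genes, among them 1 of 4 GTPases. A match describes the letters of the window and is no evidence that a factor binds there.

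Signals well above background were recorded for 60.6 to 65.8% of probes in Cy3 and for 61.8 to 67.0% in Cy5, with no saturated spot, and the number of arrays limits the precision. Every ratio below is log2(Cy3/Cy5), that is, the signal labelled SA1-null divided by the signal labelled wild type, after loess normalisation within each array, and every level is a log2 intensity on a scale common to the 3 arrays. A gene was called at a Benjamini-Hochberg adjusted p under 0.05 over all genes in limma's test of the mean ratio against 0. Stag1, the gene named as disrupted, went against the labels: its ratio was 3.34, 3.74 and 3.47 on arrays 1, 2 and 3 (mean 3.52 ± 0.21 SD, n = 3, limma adjusted p = 0.0274), so its signal was higher in Cy3, the channel said to be SA1-null. Dimmer kept probes of Stag1 had means of 3.53, 2.17 and 0.59, and the probe at 0.59 was above background in Cy5 on 0 arrays. At the brightest probe the ratio of Stag1 was 3.404 without array 2 (limma adjusted p = 0.215) and 3.54 without array 3 (limma adjusted p = 0.491). All directions given here follow the labels and not an independent check of genotype. Array 1 was on a slide of its own and was read with another version of the scanner software than arrays 2 and 3, so array, slide, software and culture cannot be told apart where array 1 stands apart. Fibroblast markers were present in both channels, 11 of 12 being tested and above background in both on every array, and 10 of the 11 had a mean ratio above 0 (median 0.71). Macrophage and blood cell markers were present too: 18 of 19 tested were above background in both channels on every array, Itgam in Cy3 on array 1 only. All 19 had ratios below 0 on 3 of 3 arrays, with a median of -2.86, and 12 were called lower by limma (0.303% of all genes). Their normalised levels summed to 9268 to 42173 in Cy3 and 78873 to 458010 in Cy5. Their part in the interferon gene values below was not tested, and in bulk RNA fewer cells of a type and less RNA per cell cannot be told apart.

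No tested member passed the threshold for a difference between the channels. With limma, 0 of 31 members were called, against 58 of 18488 genes (0.314%), 56 of them lower in that channel (0.303%) and 2 higher (0.0108%). At an unadjusted p under 0.05, 9 members lay below 0 (5.15% of all genes did) and 0 above (2.33% of all genes). Mean ratios were below 0 for 24 of 31 members (54.4% of all genes), and 13 of 31 were below 0 on all 3 arrays (19.1% of all genes). Without array 1, 284 of 18488 genes were called, and Parp14 was the 1 member among them. In that setting 22 of 31 members were below 0, beside a median of -0.02 over all genes. Without array 2 or without array 3 limma called 0 genes, with 1294 and 736 genes at an unadjusted p under 0.05. Only Stat2 was above 0 on all 3 arrays (13.3% of all genes). The type I members had a median ratio of -0.16 with 22 of 27 below 0, and the GTPases a median of -0.31 with 2 of 4 below 0, beside a median of -0.02 over all genes. Oas2, Oasl2, Rsad2 and Zbp1 entered through Cy5 alone. Among the 27 members above background in both channels on every array, 20 were below 0 and 7 lay below 0 at an unadjusted p under 0.05. Under that filter 1276 of 17097 genes had an unadjusted p under 0.05 in either direction, and the median over all genes was -0.02.

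**Figure D1:**
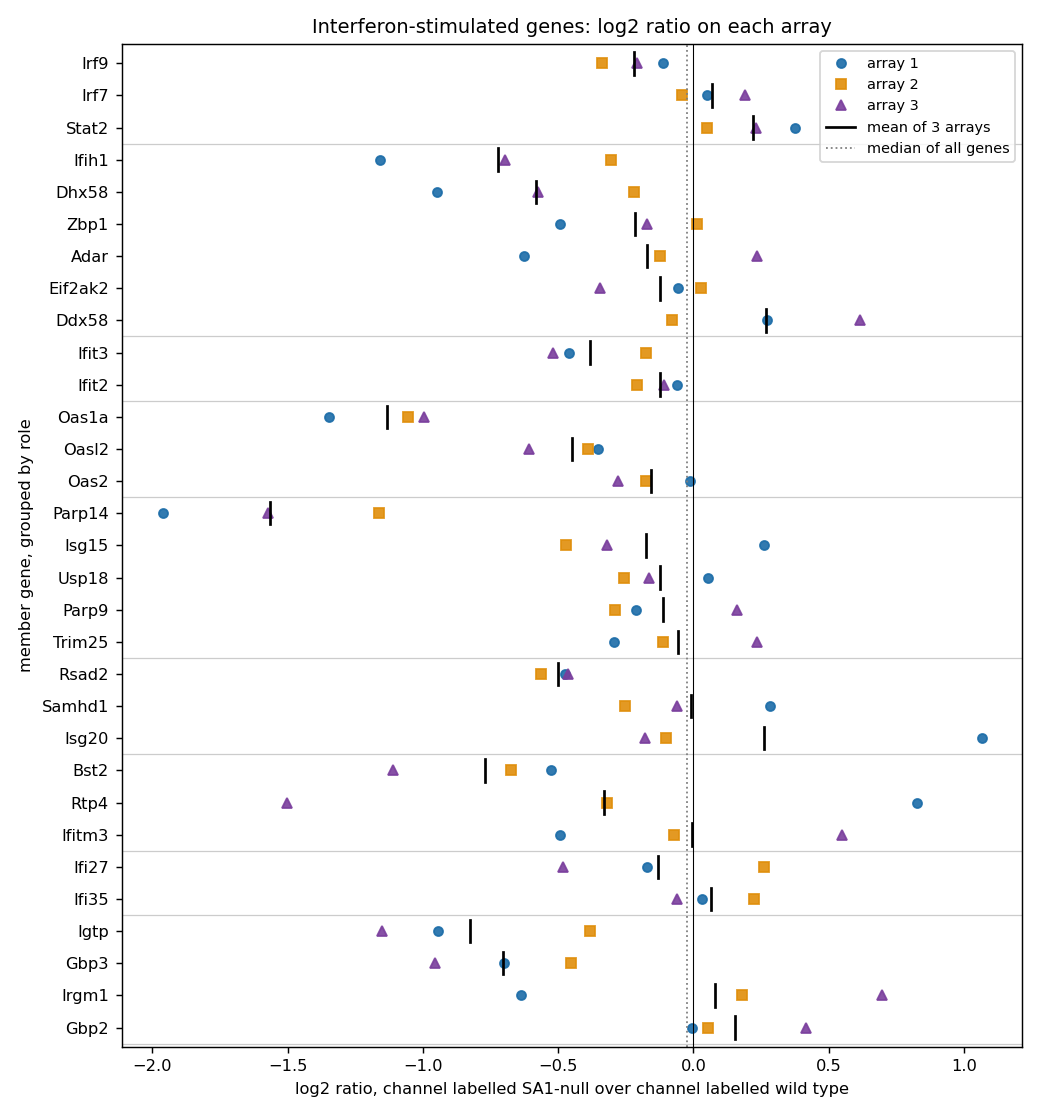
Log2 ratio of Cy3, labelled SA1-null, to Cy5, labelled wild type (horizontal axis), for the 31 tested members, grouped by role, with a point for each of the 3 arrays, a bar at their mean and a dotted line at the median of all genes. Parp14 sits farthest to the left on every array, while Rtp4 spreads from -1.50 to 0.83, and centring each array on its median in place of loess moves the median of all genes to -0.30.

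The regulators of the pathway showed ratios near 0. Irf9, the DNA-binding part of ISGF3, had a normalised log2 level of 10.31, 8.25 and 8.32 in the channel labelled SA1-null on arrays 1, 2 and 3, and of 10.42, 8.58 and 8.53 in the channel labelled wild type. Its ratio was -0.22 ± 0.11 (SD, n = 3, limma adjusted p = 0.723), and a second, dimmer probe gave 0.14, so the probes of Irf9 disagreed in sign. Both channels of Irf9 were high on array 1 and low on arrays 2 and 3, and within an array they lay close together. Stat2, the part of ISGF3 that activates transcription, had ratios of 0.38, 0.05 and 0.23 (mean 0.22 ± 0.16, limma adjusted p = 0.727). Irf7, which amplifies the induction of interferon genes, had ratios of 0.05, -0.04 and 0.19 (mean 0.07 ± 0.12). The sign of Stat2 and of Irf7 turned when arrays were centred on the median in place of loess, to -0.04 and -0.01.

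Among the sensors of viral nucleic acid, Ifih1 and Dhx58 lay below 0 on every array, and Ddx58 did not. Ifih1 encodes MDA5, a sensor of long double-stranded RNA. Its level in the channel labelled SA1-null was 8.56, 7.87 and 7.28, and in the channel labelled wild type 9.71, 8.17 and 7.98. The ratios of -1.16, -0.31 and -0.70 averaged -0.72 ± 0.43 (SD, n = 3, limma adjusted p = 0.548), and the levels of the channels overlapped across arrays. A dimmer probe of Ifih1, which failed the filter, had a mean of -0.10. With slide as a fixed term Ifih1 was called, at -0.83 (limma adjusted p = 0.0321, and 0.0321 to 0.826 over all alternatives). Dhx58 encodes LGP2, a helicase of the same family that modulates MDA5, and its ratio was -0.58 ± 0.37 (limma adjusted p = 0.628). Ddx58 encodes RIG-I, the sensor of short RNA with a triphosphate end. Its ratios were 0.27, -0.08 and 0.62, with a mean of 0.27 ± 0.35, the highest mean of any type I member tested and still within the spread of the arrays. A dimmer kept probe of Ddx58 gave -0.22, 0.05 and 0.79, a mean of 0.21. Eif2ak2, the kinase PKR that stops translation on double-stranded RNA, had levels of 9.60, 9.88 and 9.46 against 9.66, 9.85 and 9.81, a mean ratio of -0.12 ± 0.19. Zbp1, a sensor of Z-form nucleic acid, and Adar, the RNA-editing enzyme, gave means of -0.22 ± 0.26 and -0.17 ± 0.43. A dimmer kept probe of Adar had a mean of -0.37. In Cy3, 2 of 3 arrays had Zbp1 above background.

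Among the IFIT proteins, Ifit1 binds viral RNA that lacks host cap marks. Ifit3 was at 10.18, 7.50 and 7.27 in the channel labelled SA1-null and at 10.64, 7.67 and 7.78 in the channel labelled wild type. Its ratio was below 0 on every array, at -0.46, -0.17 and -0.52, and averaged -0.38 ± 0.18 (SD, n = 3, limma adjusted p = 0.680). The step between array 1 and the others was far larger than the step between channels. Ifit2 was below 0 on every array as well (mean -0.13 ± 0.08), although its second probe had a mean of 0.07. Ifit1 had 1 probe, above background only on array 1.

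The OAS enzymes make the oligoadenylate that activates RNase L. Oas1a was at 7.67, 6.83 and 6.57 in the channel labelled SA1-null and at 9.02, 7.89 and 7.57 in the channel labelled wild type. Its ratios were -1.35, -1.06 and -0.997 and averaged -1.13 ± 0.19 (SD, n = 3), a 2.19-fold difference with a limma adjusted p of 0.123. On each array the channel labelled wild type was the brighter for Oas1a, and its 3 ratios lay close together. Oas1a passed the threshold in 4 of 15 alternative settings, and over all 15 its ratio ranged from -2.29 to -1.03 and its limma adjusted p from 0.00583 to 0.785. Oasl2, an OAS-like protein, had a ratio of -0.45 ± 0.14 and Oas2 of -0.16 ± 0.13. In Cy3, Oasl2 exceeded background on 2 arrays and Oas2 on 1 array, and with a normexp offset of 0 their ratios were -0.97 and -0.56. Oas1g and Oasl1 were not well above background in either channel of any array. Oas3 was above background at its brighter probe on arrays 2 and 3 only. Oas1a sits in a cluster of near-identical copies, and whether its probe also binds RNA of those copies was not tested.

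The next members attach Isg15, ubiquitin or ADP-ribose to proteins, or remove Isg15. Parp14, an ADP-ribosyltransferase, had the lowest mean ratio of all members. Its level was 9.20, 7.76 and 7.07 in the channel labelled SA1-null and 11.17, 8.92 and 8.64 in the channel labelled wild type. The ratios of -1.96, -1.16 and -1.57 averaged -1.57 ± 0.40 (SD, n = 3), a 2.96-fold difference with a limma adjusted p of 0.105. Dimmer probes of Parp14, which failed the filter, had means of -0.25 and -0.13. The channel labelled wild type was the brighter on each array, and Parp14 passed the threshold in 5 of 15 alternative settings, with ratios from -1.91 to -1.37 and limma adjusted p from 0.00205 to 0.826 over all 15. Parp9, another member of that enzyme family, had a mean of -0.11 ± 0.24. Isg15, the ubiquitin-like modifier, was at 10.33, 7.34 and 6.89 in the channel labelled SA1-null and at 10.07, 7.81 and 7.21 in the channel labelled wild type. Its ratios changed sign between arrays, from 0.26 on array 1 to -0.47 and -0.32 on arrays 2 and 3 (mean -0.18 ± 0.39). Usp18, the protease that removes Isg15 and dampens the receptor, gave -0.12 ± 0.16. Trim25, a ubiquitin ligase that acts on RIG-I, was at 10.61, 10.79 and 11.03 against 10.91, 10.90 and 10.80, a mean ratio of -0.06 ± 0.27.

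The enzymes of nucleotides and nucleic acids differed among themselves. Rsad2, also called viperin, makes a chain-terminating nucleotide, and its ratios were -0.47, -0.56 and -0.46 (mean -0.50 ± 0.05, limma adjusted p = 0.534). In Cy3 its signal exceeded background on array 1 alone. Its mean ratio was -1.55 with a normexp offset of 0 and -2.30 with the scanner software's processed signals. Dimmer probes of Rsad2, which failed the filter, had means of -0.06 and 0.12. Samhd1, which breaks down deoxynucleotides, was at 9.96, 10.15 and 10.26 in the channel labelled SA1-null and 9.68, 10.41 and 10.32 in the channel labelled wild type. Its mean ratio was -0.01 ± 0.27. Isg20, an exonuclease of RNA, was at 9.44, 9.21 and 8.88 against 8.37, 9.31 and 9.06. Its ratio was 1.07 on array 1 and -0.10 and -0.18 on the others, so that its mean of 0.26 ± 0.70 rested on array 1 and was -0.14 without it, and -0.02 with median centring.

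The membrane factors behaved differently from each other. Bst2, or tetherin, which holds budding virions at the cell surface, was at 12.54, 10.63 and 10.03 in the channel labelled SA1-null and at 13.07, 11.31 and 11.14 in the channel labelled wild type. Its ratios were -0.53, -0.67 and -1.11, with a mean of -0.77 ± 0.30 (SD, n = 3, limma adjusted p = 0.401). Ifitm3, which blocks fusion of virus in endosomes, was at 15.04, 13.75 and 14.04 against 15.53, 13.82 and 13.49. Its ratios ran from -0.49 on array 1 to 0.55 on array 3, and the mean was -0.0050 ± 0.52. Rtp4, a chaperone of receptors, had the widest spread of all members, with ratios of 0.83, -0.32 and -1.50. Ifi27, a small membrane protein, was at 14.31, 12.31 and 11.32 against 14.48, 12.05 and 11.80, a mean of -0.13 ± 0.37. Ifi35, a partner of Nmi, had a mean of 0.07 ± 0.15, and of -0.29 with median centring.

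The GTPases split into members below 0 and members around 0. Igtp, also called Irgm3, guards host membranes from attack by other IRG proteins at the vacuoles of intracellular parasites. It was at 10.64, 8.66 and 7.95 in the channel labelled SA1-null and at 11.59, 9.05 and 9.10 in the channel labelled wild type. Its ratios were -0.94, -0.38 and -1.15 (mean -0.83 ± 0.40 SD, n = 3, limma adjusted p = 0.440). Gbp3, a guanylate-binding protein that gathers on pathogen vacuoles, was at 8.61, 7.52 and 6.85 against 9.31, 7.97 and 7.80. Its ratios of -0.70, -0.45 and -0.96 averaged -0.70 ± 0.25 (limma adjusted p = 0.419). Both were below 0 on every array, with the channel levels overlapping across arrays. Gbp2, of the same family as Gbp3, was at 9.19, 8.41 and 8.48 against 9.20, 8.35 and 8.06, a mean of 0.15 ± 0.23. Irgm1, a regulator of the IRG family and of autophagy, was at 11.59, 11.39 and 11.65 against 12.23, 11.21 and 10.95. Its ratios ran from -0.64 on array 1 over 0.18 to 0.70 on array 3 (mean 0.08 ± 0.67), and a second probe gave a mean of 0.05. The sign of Gbp2 and of Irgm1 turned with median centring in place of loess, to -0.11 and -0.33, and that of Irgm1 also with slide as a fixed term (-0.10) and without array 3 (-0.23). The probe of Iigp1 was above background only on array 1, so it has no ratio here.

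Many members differed more between array 1 and the other arrays than between the channels of an array. After each channel was put on a common scale, the type I members were higher on array 1 than on the mean of arrays 2 and 3 by a median of 0.98 log2 units in the channel labelled SA1-null and 1.18 in the channel labelled wild type. The GTPases were higher by medians of 1.09 and 1.29, while all genes had medians of -0.14 and -0.07. Averaged over channels, 15 of 27 type I members and 2 of 4 GTPases were over 1 log2 unit higher on array 1 (10.2% of all genes). Of the 31, 0 were that much lower (10% of all genes), and these counts rest on the brightest probe of each gene. In Cy3, array 1 lay above both other arrays for 22 of 27 type I members and 3 of 4 GTPases (31.3% of all genes), and in Cy5 for 22 of 27 and 4 of 4 (43.1% of all genes). With a single array on the first slide, in a comparison chosen after the data were seen, these differences are given as a description with no test. The median ratio of the type I members was -0.17, -0.21 and -0.21 on arrays 1, 2 and 3, and that of the GTPases -0.67, -0.16 and -0.27.

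**Figure D2:**
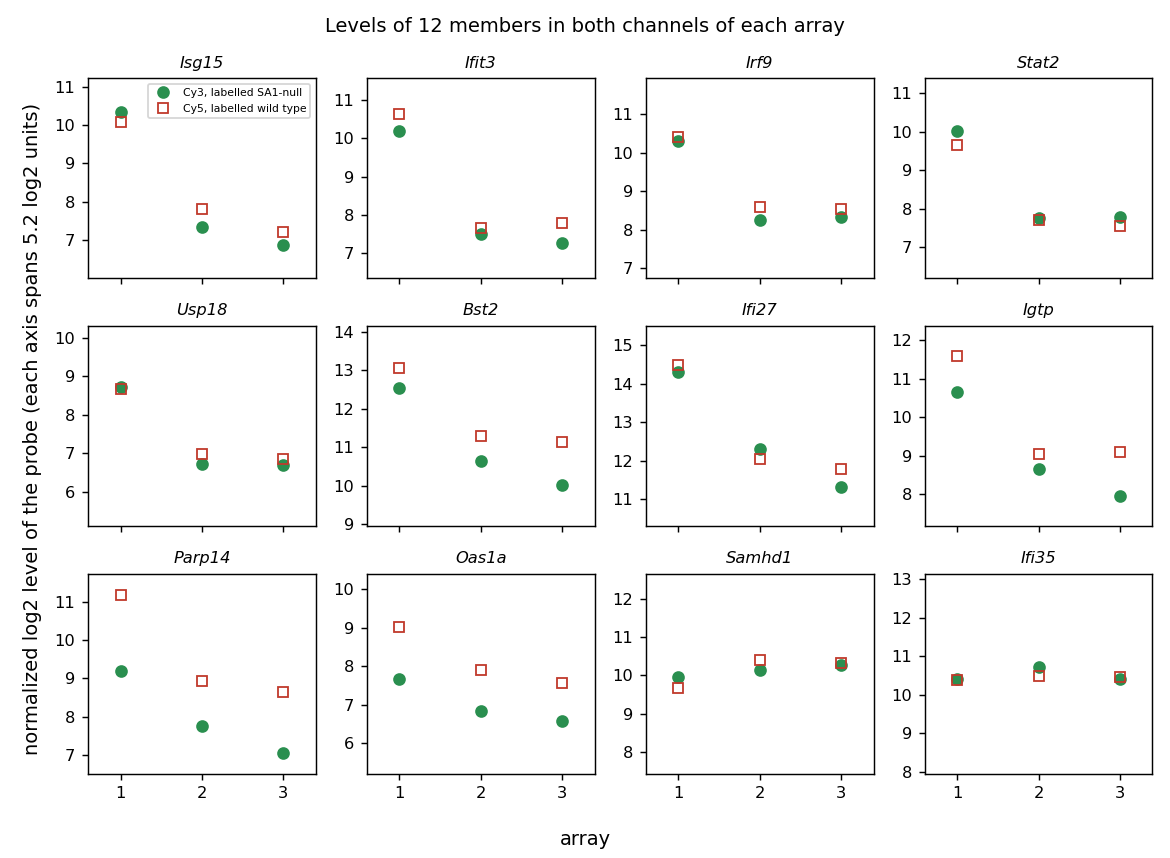
Normalised log2 level (vertical axis, of equal span in each panel) of 12 members on arrays 1, 2 and 3, with filled circles for the channel labelled SA1-null and open squares for the channel labelled wild type. Isg15, Ifit3, Irf9, Stat2, Usp18, Bst2, Ifi27, Igtp and Parp14 stand high in both channels of array 1, whereas Samhd1 and Ifi35 do not. The 12 are a selection, and of all 31 tested members 17 were over 1 log2 unit higher on array 1.

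Isg15 and Ifit3 led this difference. On the mean of both channels Isg15 was 2.89 log2 units higher on array 1, or 7.40-fold, and Ifit3 was 2.85 units higher, or 7.21-fold. Ifi27 was 5.77-fold, Igtp 5.39-fold, Stat2 4.41-fold, Parp14 4.25-fold, Bst2 4.08-fold, Irf9 3.84-fold and Usp18 3.70-fold higher. These folds are those of the brightest probe, and the dimmer kept probe of Irf9 differed by 0.38 in Cy3 and 0.34 in Cy5. Ddx58 was at 1.00 on the mean of both channels, and its dimmer kept probe at -0.01 in Cy3 and 0.63 in Cy5. All 3 regulators of the first group were above 0 in this comparison, but Irf7 by only 0.45 units. At their brightest probes Eif2ak2, Ifit2, Trim25, Ifi35, Samhd1 and Isg20 had differences between -0.47 for Samhd1 and 0.02 for Ifit2. A dimmer kept probe of Trim25 differed by -1.21 in Cy3 and -1.72 in Cy5, and that of Ifit2 by 0.53 and 0.32. In Cy5 alone Samhd1 and Isg20 were at -0.69 and -0.81. Rtp4 was 2.63 units higher in Cy3 and 0.89 units higher in Cy5, the widest gap between channels. For Irgm1 the difference was 0.07 in the channel labelled SA1-null and 1.15 in the channel labelled wild type, and for Isg20 it was 0.39 in Cy3. Of the 17 members over 1 log2 unit higher on array 1, 12 had a RefSeq window and 10 of these held the ISRE letters, and of the other 14 members 4 of 11 did. These shares are a description of windows and were not tested.

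**Figure D3:**
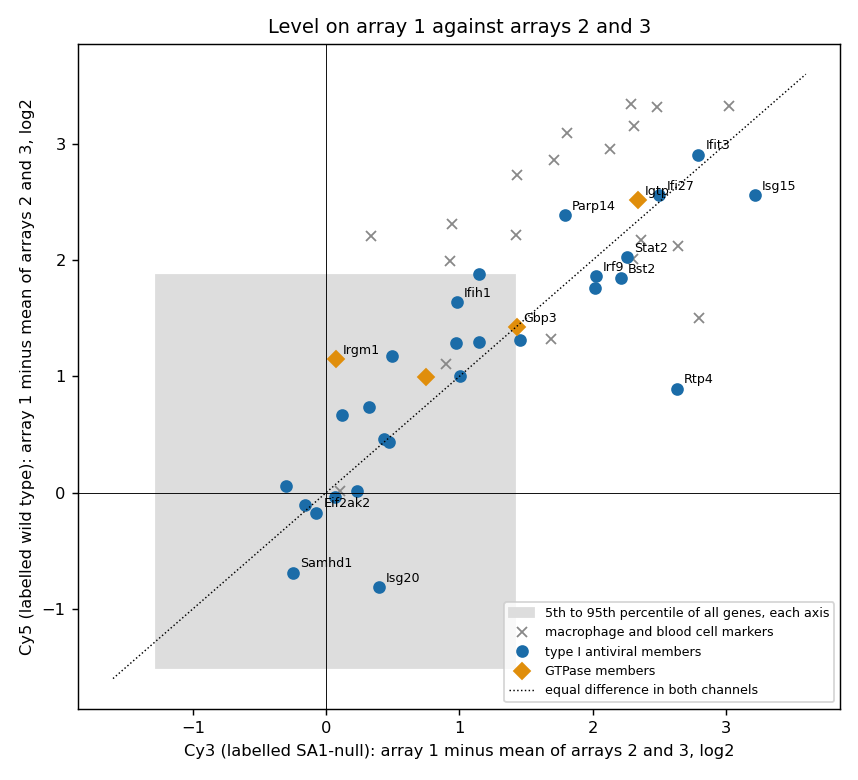
Difference in normalised log2 level between array 1 and the mean of arrays 2 and 3, in the channel labelled SA1-null (horizontal axis) and the channel labelled wild type (vertical axis), with circles for 27 type I members, diamonds for 4 GTPases, crosses for 19 macrophage and blood cell markers and a grey box from the 5th to the 95th percentile of all genes. Most members lie up and to the right of 0 along the line of equal difference, with Isg15 at 3.22 and 2.56 and Ifit3 at 2.79 and 2.91.

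Of the 7 members with a probe that failed the filter, 4 were above background only on array 1 and Oas3 only on the other arrays. Ifit1 gave raw Cy3 signals of 337, 33 and 35 over local backgrounds of 22, 32 and 26, and raw Cy5 signals of 772.5, 61.5 and 59 over backgrounds of 64, 51.5 and 48. It was above background in both channels of array 1 and in neither channel of arrays 2 and 3. Iigp1, an IRG GTPase that attacks parasite vacuoles, gave 198.5, 36 and 30 in Cy3 and 975.5, 66.5 and 67.5 in Cy5. Ifi44, a cytoplasmic antiviral protein, and Cmpk2, a mitochondrial nucleotide kinase, completed these 4. Folds were formed from the normalised level on array 1 against the mean level of the probe on arrays 2 and 3. Levels on arrays 2 and 3 were not above background, so these folds set a detected signal against an undetected signal. Ifit1 was 5.63-fold higher on array 1 in the channel labelled SA1-null and 4.03-fold in the channel labelled wild type. Iigp1 was 3.45-fold and 5.13-fold higher, Ifi44 3.73-fold and 2.08-fold, and Cmpk2 1.20-fold and 2.68-fold. Oas3 went the other way at its brighter probe, with Cy3 signals of 25.5, 60 and 61 and Cy5 signals of 59, 119 and 112, while its other probe was above background only in Cy5 of array 1.

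Markers of macrophages and blood cells were also higher on array 1, by medians of 1.81 log2 units in the channel labelled SA1-null and 2.22 in the channel labelled wild type. Within array 1 these markers had a median ratio of -3.27, whereas the type I members had -0.17 there. Fibroblast markers were higher on array 1 by medians of 0.91 and 0.39, but they did not move together. Array 1 lay above both other arrays for 8 of 11 in Cy3 and 6 of 11 in Cy5. Lum differed by 7.25 in Cy3 and 3.28 in Cy5, and Twist2 by -3.18 and -3.62. The part of these cell type differences in the levels of the interferon genes was not tested.

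The upstream parts of the pathway gave no called gene. Of 13 interferon genes listed, 10 had a probe and 3 passed the filter, and Ifnb1 and Ifng were among those that were not kept. The 9 receptor chains and kinases had a median ratio of -0.08 with 5 below 0, and the smallest p was that of Il10rb, a receptor chain for interferon lambda and interleukin-10 (-0.52 ± 0.33, limma adjusted p = 0.656). On array 1 these 9 genes differed by medians of -0.01 in the channel labelled SA1-null and 0.32 in the channel labelled wild type. Of 14 tested signalling factors outside the members, 10 were below 0 with a median of -0.16. Irf8, a factor of myeloid cells, had ratios of -3.45, -2.11 and -2.19 (mean -2.59 ± 0.75, limma adjusted p = 0.0865). Irf5, another factor of myeloid cells, had a mean of -1.10 ± 1.08, and Socs3, a feedback inhibitor of cytokine receptors, of -0.42 ± 0.49.

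Other antiviral interferon-stimulated genes outside the members were below 0 in 25 of 33 tested (54.4% of all genes), with a median of -0.21, and 30 of the 33 were above background in both channels on every array. At an unadjusted p under 0.05, 9 of the 33 lay below 0 (5.15% of all genes) and 1 above (2.33%), and 0 were called by limma after adjustment. Among the 9 were Ifi202b and Trim30a, which exceeded background in Cy3 on 1 array only and so passed the filter through Cy5 alone. Sp110, a nuclear body protein, had the lowest ratio of the list, -3.26, -2.01 and -2.73 (mean -2.66 ± 0.63, limma adjusted p = 0.0587). Oas1f, a neighbour of Oas1a in the OAS cluster, had ratios of -1.47, -1.30 and -1.77 (mean -1.51 ± 0.24, limma adjusted p = 0.0697). Ifi27l2a, a relative of Ifi27, had a mean of -0.86 ± 0.15 (limma adjusted p = 0.223), where Ifi27 itself had -0.13. All 7 tested GBP and IRG GTPases outside the members were below 0 (54.4% of all genes), with a median of -0.20, and none was called. Irgm2 had a mean of -0.71 ± 0.21 and Gvin1 of -1.19 ± 0.92. Gbp8 was above background in Cy5 only, so its ratio has no measured Cy3 side. On array 1 the other antiviral genes were higher by medians of 0.35 and 0.79, and the other GTPases differed by medians of -0.01 and -0.17. These GTPases did not move together, and Irgm2 was higher by 1.96 in Cy3 and 2.00 in Cy5. Array 1 lay above both other arrays for 2 of the 7 in Cy3 (31.3% of all genes) and 3 of the 7 in Cy5 (43.1%).

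**Figure D4:**
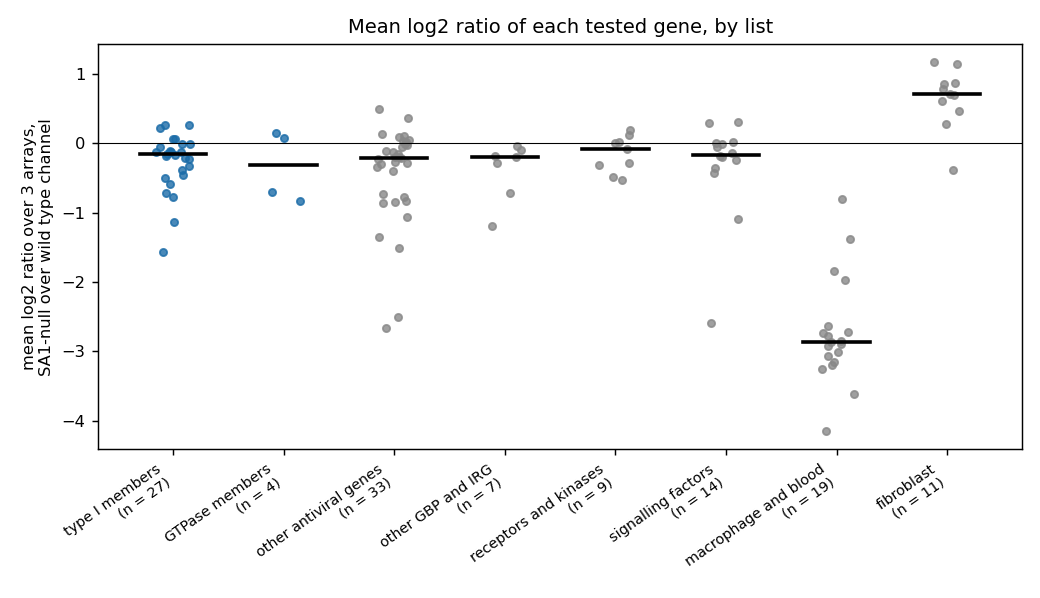
Mean log2 ratio over 3 arrays (vertical axis) of each tested gene in the member lists, the other pathway lists and the marker lists, with a bar at each list's median. The type I members centre at -0.16, the GTPases at -0.31 and the 4 other pathway lists drawn between -0.21 and -0.08, while the macrophage and blood cell markers centre at -2.86 and the fibroblast markers at 0.71.

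The ratios of the members kept their sign to different degrees. Of 31 tested members, 18 had the same sign in every alternative in which they were tested, among them Parp14, Oas1a, Bst2, Ifih1, Igtp and Gbp3. Parp14, Oas1a and Ifih1 were the members called in at least 1 of the 15 alternatives. With 3 arrays an exact sign-flip test of a single ratio cannot give a two-sided p below 0.25, so the p-values rest on limma's estimate of the spread shared across genes.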

How the data were processed

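Total RNA (1 µg per sample, per the labels' protocols) was hybridised on Agilent two-colour arrays. The authors deposited scanner output per array with spot intensity in each channel, not normalised, and with processed signals and a log10 ratio that the scanner software had background-subtracted and dye-normalised, per the file headers. The headers give version 10.1.1.1 of Feature Extraction for the array of replicate 1 and 10.7.3.1 for both others. The authors also deposited a table of log2 ratios per array. These correlated with log2(Cy5/Cy3) of the scanner signals at r of 0.982 to 0.997 with medians of -0.02 to -0.01, so their sign was turned. After that turn Stag1 had a mean of 3.56 in these values. As deposited it therefore lay below 0, under sample titles that read KO vs WT, which differs from the direction of the channel labels. Whether the channel labels are right was not tested. The submitters' processing notes name limma without a version. How that table was normalised is not given in the sources used here.

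From median spot intensities, background was corrected with normexp (offset 50), arrays were normalised by loess with control and outlier spots at weight 0, and levels were scaled between arrays with Aquantile (limma 3.58.1, R 4.3.3). Of 41174 probes, 24019 were well above background on all 3 arrays in at least 1 channel, and the brightest probe stood for a gene. Names came from RefSeq (GRCm38.p6), which matched 23374 probes. Ratios were tested with lmFit and eBayes, adjusted over all 18488 genes. The script was checked on simulated data. Members and lists were chosen with earlier results of these data known. Values per array are given for Stag1, the 4 lowest and 4 highest type I members, every tested GTPase and the brightest member of each role group. Rsad2, Rtp4, Isg15 and the comparison of array 1 with the other arrays were added after the values were seen. In other pathway lists at most 3 genes of smallest p are named, apart from Ifi202b, Trim30a and Plac8. Markers of endothelium (2 of 7 tested, median ratio -0.16), epithelium (5 of 6, -0.10) and lymphocytes or plasmacytoid dendritic cells (2 of 5, -0.02) were read too. Alternatives changed background, normalisation, filter, probe rule, test and slide, used the deposited values, or left out an array.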

Additional observations from a re-analysis of the deposited data

How the results depend on the processing

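The number of genes called was 58, and it was 118 with no background subtraction, 265 with normexp at offset 0, 325 with the Feature Extraction signals, 34 with median centring, 160 with scale normalisation, 92 with both channels above background, 113 with an intensity trend and 1772 with slide as a fixed term. With no filter on dim probes limma called 0 genes, although 1982 had an unadjusted p under 0.05. Leaving out an array gave 0 to 284 genes, 0 without replicate 2 (1294 at an unadjusted p under 0.05) and 0 without replicate 3 (736). Members called were 0, and 1 with no background subtraction (Oas1a), 2 with offset 0, 2 with the Feature Extraction signals, 1 with scale normalisation (Parp14), 3 with slide as a fixed term, and 0 to 1 without an array (Parp14 without replicate 1). Stag1 kept its direction at 3.67 with scale normalisation and 3.52 with no filter but passed the threshold in neither, and it was 3.404 to 3.61 without an array, passing only without replicate 1. The median ratio of the type I members stayed below 0: -0.20 with no background subtraction, -0.26 with offset 0, -0.45 with median centring, -0.11 with the deposited values, -0.13 with no filter, -0.13 with both channels above background, -0.13 with the mean of probes, -0.13 with slide as a fixed term and -0.20 to -0.16 without an array. That of the GTPases was -0.64 with median centring and -0.40 to -0.24 without an array. Median centring moved the median of all genes to -0.30, and relative to it the medians were -0.15 and -0.35. Within slides the type I median was -0.17 and -0.16 and that of the GTPases -0.67 and -0.24. The cause of these shifts was not tested. The excess on array 1, 1.13 for type I members and 1.15 for GTPases, was 1.52 and 1.43 with offset 0 and 1.36 for GTPases on a 75th percentile scale, alternatives chosen after the data were seen. A random slide term could not be estimated. Signals near background in Cy3 limit the ratios of Oas2, Rsad2, Oasl2 and Zbp1. Each array holds both samples of a replicate number, so the test of its ratio is already the paired analysis.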

Other observations

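Ifi202b, a member of the interferon-inducible p200 family, was named after its values were seen. Its raw signals were 2773, 31.5 and 25.0 in the channel labelled SA1-null and 12129, 1056 and 731 in the channel labelled wild type on arrays 1, 2 and 3. The log2 ratio was -0.40 on array 1 and -3.39 and -3.72 on arrays 2 and 3, and the channel labelled SA1-null was above background on array 1 only. Plac8, named in the same way, lay above 0 on every array (0.51, 0.71 and 0.28, limma adjusted p = 0.609) and its level on array 1 less that on the mean of arrays 2 and 3 was -2.90 log2 units in Cy3 and -2.92 in Cy5.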
